A study of Mus musculus with 8 samples.

Results

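The proteasome genes were the rows of the comparison table whose symbols start with Psm, a letter from a to g and a digit. They numbered 49 of 16133 genes, and all 49 had an adjusted p, as did 14257 genes in all. The livers came from METTL14Alb mice (KO), whose label carries the name of the Albumin promoter that drives Cre in hepatocytes, and from METTL14f/f mice (WT), which carry the floxed gene. Mice of both genotypes received an intraperitoneal injection of tunicamycin at 2 mg/kg for 24 h, so no untreated liver enters any value below. PolyA RNA was sequenced both as such (input) and after immunoprecipitation of m6A (IP), with 2 libraries each of KO input, KO IP, WT input and WT IP. Other cells of the liver would keep the floxed gene in such a model, and ages are not given in the labels.

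The 26S proteasome degrades proteins tagged with ubiquitin. Its barrel-shaped core has outer rings of alpha subunits (Psma), which gate the entry, and inner rings of beta subunits (Psmb), of which Psmb5, Psmb6 and Psmb7 carry the active sites. A regulatory particle caps the core, with a ring of ATPases (Psmc) that unfold the substrate and non-ATPase subunits (Psmd) that bind ubiquitin and remove it. Interferon gamma is known to induce Psmb8, Psmb9 and Psmb10, which replace the constitutive active subunits in the immunoproteasome, and the PA28 activator made of Psme1 and Psme2. Dedicated chaperones (Psmg, Psmd5, Psmd9, Psmd10) assemble the particle without being part of it. In hepatocytes under stress of the endoplasmic reticulum, the proteasome receives misfolded proteins exported from that compartment. METTL14 pairs with METTL3 to place m6A on mRNA, and antibodies to m6A also bind the related m6Am that can follow the cap.

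The reads that each input library had per gene were worked out from the deposited means, for all 49 proteasome genes, and the totals were estimated at 12288263 to 16821808 reads. Which replicate number a library has is not known, so those of KO are named KO A and KO B here and those of WT named WT A and WT B. Whether they came from separate mice is not stated, and p-values therefore describe the spread of these libraries alone. The numerator of the deposited fold change is also not stated, and every direction below rests on its reading as KO over WT. Of 347 genes of mean count 100 or more with a log2 value above 2, 156 had peaks only in the KO list and 0 only in the WT list. Of 403 such genes below -2, 30 had peaks only in the KO list and 46 only in the WT list. The KO list was the longer one, and of all 9202 tested genes of mean 100 or more, 2990 had peaks only in the KO list and 254 only in the WT list. The targeted gene gave no strong check, since Mettl14 had normalized counts of 64.6 and 62.0 in the KO libraries, against 79.8 and 99.7 in the WT libraries. Its log2 change in the authors' deposited table was -0.50 ± 0.41 (SE, adjusted p = 0.342). Of 6 hepatocyte markers, 5 fell and Apoa1 rose. Of 4 cholangiocyte markers 3 rose, with summed normalized counts of 753 and 636 in the KO libraries, against 110.0 and 76.8 in the WT libraries. Of all tested genes 22.2% fell and 20.4% rose in the authors' deposited table. The part of these marker shifts in the proteasome values was not tested. In bulk liver fewer cells of a type and less RNA per cell cannot be told apart.

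Most proteasome mRNAs were lower in KO livers at the authors' scaling of the libraries, but not at equal total counts. At an adjusted p under 0.05 in the authors' deposited table, a total of 28 of 49 genes fell, 1 (Psmb10) rose and 20 were not called. Over all tested genes 22.2% fell and 20.4% rose, so the proteasome share of 57.1% lower was above the background. Among 8507 tested genes in the range of mean counts that the proteasome genes of mean 100 or more spanned, 29.9% fell and 21.2% rose. The median log2 change of the 49 genes was -0.69, against 0.046 over all tested genes and -0.12 over those of like abundance. Both KO libraries lay below both WT libraries for 37 proteasome genes and above them for 7, where 36.7% and 40.2% of all genes did so. In reads as a share of total counts these were 10 and 24 genes, where 12.5% and 72.4% of all genes did so.

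**Figure D1:**
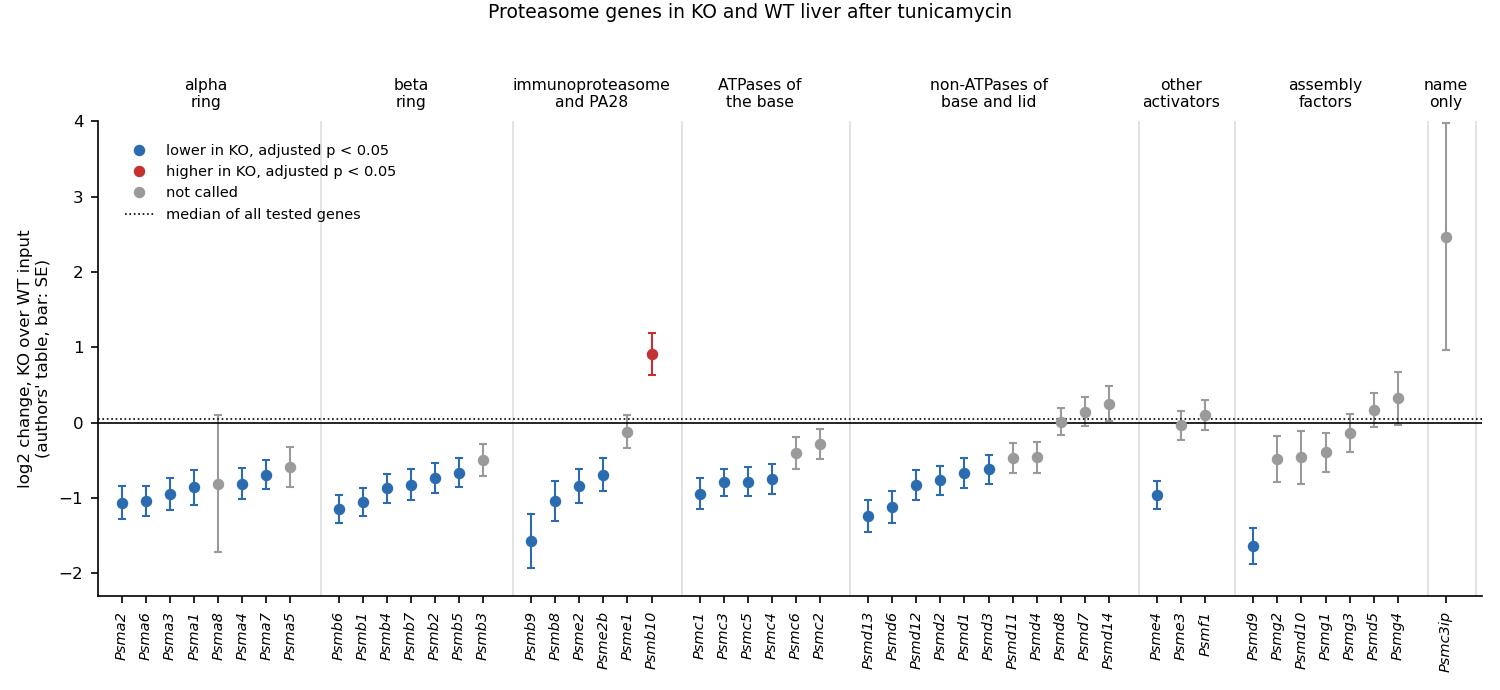
Log2 change of each of the 49 genes (KO over WT input, authors' deposited table; bars are standard errors), grouped by class, with the median of all tested genes dotted. Every core gene lies below 0 and Psmb10 is the only gene called higher; at equal total counts most core genes lie near 0.

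The sign of these changes depended on how the libraries were scaled. When the libraries were set to equal total counts, the median of all genes moved up by 0.82 on the log2 scale. The median of the 49 genes then stood at 0.13, against 0.87 over all recovered genes tested. In that limma fit 15 of the 49 genes rose and 2 (Psmb9 and Psmd9) fell, where 58.7% of all genes rose and 7.56% fell. At the authors' scaling the proteasome median minus that of all genes was -0.74, and minus that of genes of like abundance -0.57, and 42 of 49 genes lay below the median of all genes. Rescaling moves all genes nearly alike, so these relative values could not change with it and are no second observation. The reads of the 49 genes made up 0.611% and 0.576% of the recovered reads in the KO libraries, against 0.687% and 0.642% in the WT libraries. As a share of the estimated total, which includes the most abundant mRNAs, they made up 0.375% and 0.360% in the KO libraries, against 0.330% and 0.309% in the WT libraries, the opposite order. Exact 95% Clopper-Pearson intervals of these last shares, which cover counting error only, were 0.372% to 0.378% and 0.357% to 0.364% in the KO libraries, against 0.327% to 0.333% and 0.306% to 0.312% in the WT libraries. Recovered genes held 61.4% and 62.6% of the estimated total in the KO libraries, against 48.1% and 48.2% in the WT libraries. The rest of each total was filled in from the deposited mean of the genotype at the library's size factor, not from reads of that library. The intervals take each total as known and leave this step out, and equal total counts rest on the same estimates. An exact permutation test of 2 against 2 libraries cannot give a two-sided p below 0.333, and both shares reached it. Below, "rose" and "fell" refer to the authors' scaling unless equal total counts are named.

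**Figure D2:**
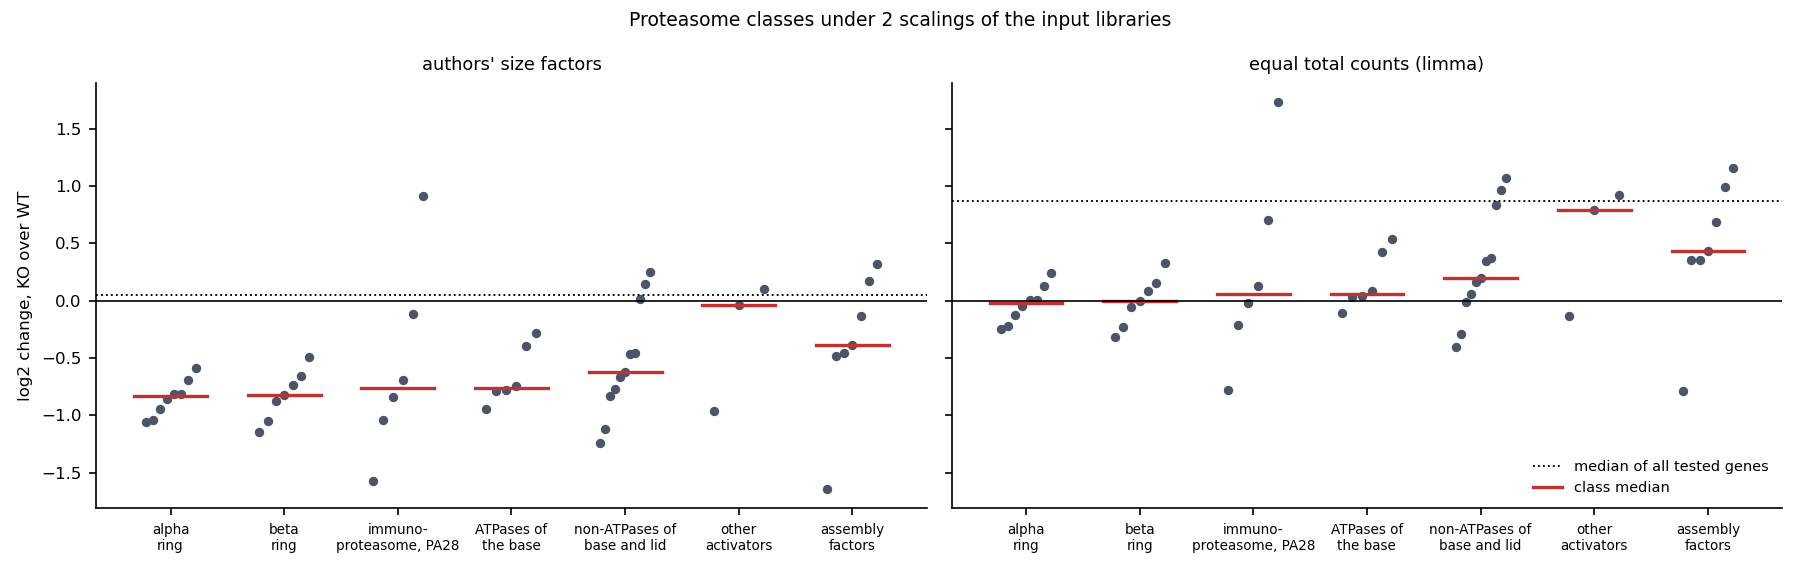
Log2 change of each proteasome gene by class, without Psmc3ip, at the authors' size factors (left) and at equal total counts (right); red bars are class medians and dotted lines the median of all genes. The 7 class medians shown lie below 0 on the left, and on the right they lie between -0.02 and 0.79.

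With limma at the authors' size factors, 33 of the 49 genes fell and 2 (Psmb10 and Psmc3ip) rose, where 24.0% and 25.4% of all genes did. Without WT A 31 fell and 2 rose, and without WT B 34 fell and 1 rose. Without KO A or without KO B limma called 0 of all 14041 genes, the proteasome genes included, with the lone KO library assumed to vary like the WT pair. At an unadjusted p under 0.05 those fits had 28 and 30 proteasome genes lower. Libraries of a genotype differed little across the 47 genes of mean 100 or more. The median log2 ratio of library B over A was 0.0018 in KO and -0.048 in WT, with extremes of -0.65 for Psmb9 in KO and -0.61 for Psmd9 in WT.

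The core genes of KO livers were low at the authors' scaling and not at equal total counts. At the authors' scaling 12 of 15 fell and 0 rose (0 also at an unadjusted p under 0.05 and in limma), with a median of -0.82 and a range from -1.15 to -0.49. Over all tested genes 22.2% fell and 20.4% rose, and among those of like abundance 29.9% fell. By limma at equal total counts 0 of 15 were called in either direction, with 1 lower and 1 higher at an unadjusted p under 0.05. At that scaling limma called 7.56% of all genes lower and 58.7% higher. All 15 lay below the median of all genes, a place that rescaling cannot change. In the alpha ring 6 of 8 genes fell. Psma2, a subunit of that ring, was its lowest, with normalized counts of 501 and 421 in the KO libraries, against 911 and 1014 in the WT libraries. Its log2 change in the authors' deposited table was -1.06 ± 0.22 (SE, adjusted p = 5.83e-06). Psma6, another subunit of that ring, had counts of 626 and 699 in the KO libraries, against 1352 and 1380.3 in the WT libraries. Each KO value of both genes lay below each WT value, also at equal total counts. At that scaling 3 alpha ring genes had both KO libraries below both WT libraries. Psma5 and Psma7 had both KO libraries above, where 12.5% and 72.4% of all genes lay below and above. Psma5 moved least, with counts of 214 and 221 in the KO libraries, against 299 and 356 in the WT libraries, and a log2 change in the authors' deposited table of -0.59 ± 0.26 (SE, adjusted p = 0.0584). Its groups did not overlap at the authors' scaling, KO lower, but the change missed the threshold, and at equal total counts KO was the higher group. Log2 changes in the authors' deposited table for Psma1, Psma3, Psma4 and Psma7 were -0.86, -0.95, -0.81 and -0.69. Psma8, the alpha subunit of male germ cells, had only 18 and 8 reads in the KO libraries, against 23 and 9 in the WT libraries.

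In the beta ring 6 of 7 genes fell, among them the 3 that carry active sites, where 22.2% of all tested genes fell. None of the 7 beta ring genes was called by limma at equal total counts, where 7.56% of all genes fell and 58.7% rose. Psmb6, the subunit of caspase-like activity, had the largest fall in the core, with normalized counts of 1369.9 and 1395 in the KO libraries, against 3270.2 and 2844 in the WT libraries. In the authors' deposited table its log2 change was -1.15 ± 0.19 (SE, adjusted p = 6.68e-09), and at equal total counts limma gave -0.32 (adjusted p = 0.0688). Psmb7, the subunit of trypsin-like activity, had counts of 715 and 836 in the KO libraries, against 1434 and 1304 in the WT libraries. Its log2 change was -0.82 ± 0.20 (SE, adjusted p = 2.28e-04) in the authors' deposited table. Psmb5, the subunit of chymotrypsin-like activity, had counts of 2015 and 1677 in the KO libraries, against 2961 and 2876 in the WT libraries, and a log2 change in the authors' deposited table of -0.66 ± 0.19 (SE, adjusted p = 0.00174). For each of the 3 genes the groups did not overlap at the authors' scaling, and at equal total counts only Psmb6 kept its KO libraries below both WT libraries. Of all genes 36.7% had both KO libraries below both WT libraries at the authors' scaling and 12.5% at equal total counts. Among subunits without an active site, Psmb1, Psmb2 and Psmb4 had log2 changes in the authors' deposited table of -1.05, -0.73 and -0.87. Psmb3 had the smallest, at -0.49 (adjusted p = 0.0532) in the authors' deposited table, with counts of 461 and 437 in the KO libraries, against 647 and 618 in the WT libraries.

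The immunoproteasome genes did not move together. Psmb8, Psmb9, Psme2 and Psme2b fell, Psmb10 rose and Psme1 was not called at the authors' scaling. Psme2b, a near copy of Psme2 on another chromosome, can share reads with it, so the count without it was 3 lower and 1 higher of 5. Over all tested genes 22.2% fell and 20.4% rose. By limma at equal total counts Psmb9 was called lower and Psmb10 and Psme1 were called higher, where 7.56% of all genes fell and 58.7% rose. Sequences upstream of the start are shown for 3 immunoproteasome genes, the constitutive counterparts Psmb5 and Psmb6, and Psmd9. These sequences are shown because Psmb10 rose while the other catalytic subunits fell, and because Psmd9 had the largest fall. They run from 200 bases before the annotated start to the base before it (RefSeq, GRCm38.p6), in the direction of the gene, with matches of the searched motifs in capitals.
Psmb10 (chr8:105938393-105938592, minus strand): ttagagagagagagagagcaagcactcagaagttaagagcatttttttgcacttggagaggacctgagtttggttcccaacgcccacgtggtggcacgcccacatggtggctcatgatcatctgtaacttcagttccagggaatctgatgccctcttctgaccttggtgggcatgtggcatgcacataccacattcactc
Psmb8 (chr17:34197995-34198194, plus strand): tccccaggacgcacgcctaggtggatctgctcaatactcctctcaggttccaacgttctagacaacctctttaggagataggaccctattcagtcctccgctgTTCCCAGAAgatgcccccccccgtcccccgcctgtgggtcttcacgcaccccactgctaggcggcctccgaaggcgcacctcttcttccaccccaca
Psmb9 (chr17:34187331-34187530, minus strand): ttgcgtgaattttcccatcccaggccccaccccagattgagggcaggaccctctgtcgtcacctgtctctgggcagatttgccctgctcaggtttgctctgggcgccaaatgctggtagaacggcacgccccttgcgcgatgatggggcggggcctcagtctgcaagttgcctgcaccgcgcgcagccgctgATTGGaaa
Psmb5 (chr14:54617996-54618195, minus strand): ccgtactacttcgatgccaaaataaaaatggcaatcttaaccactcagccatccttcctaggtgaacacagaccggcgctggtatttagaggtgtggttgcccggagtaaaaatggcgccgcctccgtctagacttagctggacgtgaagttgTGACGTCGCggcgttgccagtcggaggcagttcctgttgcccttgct
Psmb6 (chr11:70525157-70525356, plus strand): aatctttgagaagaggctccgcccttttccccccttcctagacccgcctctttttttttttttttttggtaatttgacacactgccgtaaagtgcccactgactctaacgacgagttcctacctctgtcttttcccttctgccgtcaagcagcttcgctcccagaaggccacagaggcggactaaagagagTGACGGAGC
Psmd9 (chr5:123227990-123228189, plus strand): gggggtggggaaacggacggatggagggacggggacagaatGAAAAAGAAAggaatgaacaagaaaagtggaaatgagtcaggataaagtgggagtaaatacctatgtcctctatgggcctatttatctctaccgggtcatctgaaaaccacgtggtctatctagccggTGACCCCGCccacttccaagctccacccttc
The window of Psmb8 held TTCNNNGAA, the core of gamma interferon activation sites, 97 bases before the start. That of Psmb9 held CCAAT on the opposite strand 8 bases before the start, and that of Psmb10 held none of the searched motifs. Psmb5, Psmb6 and Psmd9 held TGACNNNGC, the core of antioxidant response elements, at 47, 9 and 31 bases before the start. Psmd9 also held the core of interferon-stimulated response elements, a pair of GAAA runs 2 bases apart, at 159 bases before the start.

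Psmb10 replaces Psmb7 in the immunoproteasome and lies on chromosome 8, 105935728 to 105938392. It had normalized counts of 426 and 328 in the KO libraries, against 226 and 174 in the WT libraries, so the lowest KO value was above the highest WT value. Its log2 change was 0.91 ± 0.28 (SE, adjusted p = 0.00369) in the authors' deposited table, and limma at equal total counts gave 1.73 (adjusted p = 3.63e-04), so it was called higher at both scalings. Psmb9, which replaces Psmb6, lies on chromosome 17, 34182030 to 34187330. Counts of Psmb9 were 77.3 and 49.3 in the KO libraries, against 189 and 187 in the WT libraries, and both KO values were below both WT values. Its log2 change was -1.57 ± 0.36 (SE, adjusted p = 7.14e-05) in the authors' deposited table and -0.78 (adjusted p = 0.0399) in limma at equal total counts. Psmb8, which replaces Psmb5, lies near it on chromosome 17, 34198195 to 34201454. Counts of Psmb8 were 174 and 167 in the KO libraries, against 366 and 333 in the WT libraries, without overlap. The authors' deposited table gave -1.04 ± 0.26 (SE, adjusted p = 3.68e-04), a call that equal total counts ended, where limma gave -0.21 (adjusted p = 0.268).

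**Figure D3:**
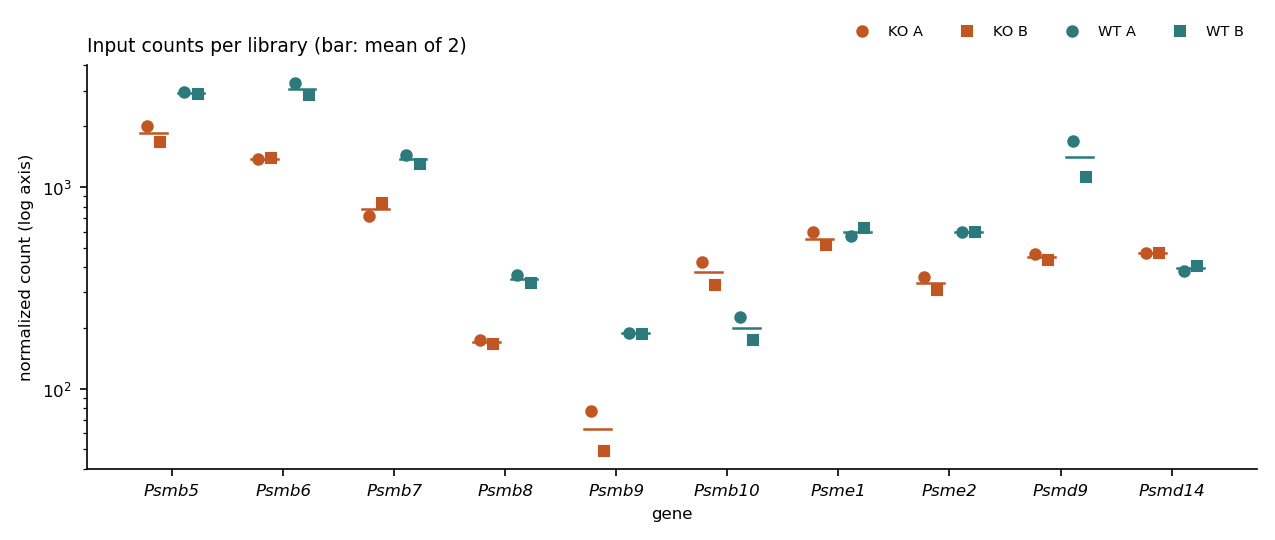
Normalized counts (log axis) of catalytic, immunoproteasome and PA28 subunits with Psmd9 and Psmd14 in each input library, KO left of WT; horizontal bars are the means of 2 libraries. Psmb10 has 426 and 328 in KO, above the WT libraries, while Psmb8 and Psmb9 lie below theirs; at equal total counts Psmb5 and Psmb7 overlap between genotypes.

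Ratios within a library do not depend on the scaling. Reads of Psmb10 amounted to 59.6% and 39.2% of those of Psmb7 in the KO libraries, against 15.8% and 13.3% in the WT libraries, a log2 difference of 1.74. Reads of Psmb8 amounted to 8.62% and 9.93% of those of Psmb5 in the KO libraries, against 12.3% and 11.6% in the WT libraries, a log2 difference of -0.37. Reads of Psmb9 amounted to 5.64% and 3.53% of those of Psmb6 in the KO libraries, against 5.77% and 6.58% in the WT libraries, a log2 difference of -0.46. The groups did not overlap in any of the 3 pairs, and each two-sided exact permutation test over 2 against 2 libraries gave p = 0.333, the smallest that it can give, also after adjustment over the 3 pairs. The ratio to the constitutive partner was thus higher in KO for Psmb10 and lower in KO for Psmb8 and Psmb9. KO A of the Psmb9 pair lay close to WT A, and the log2 difference was -0.13 without KO B and -0.80 without KO A. Transcript lengths are not in these ratios, so they do not give the makeup of the particle.

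**Figure D4:**
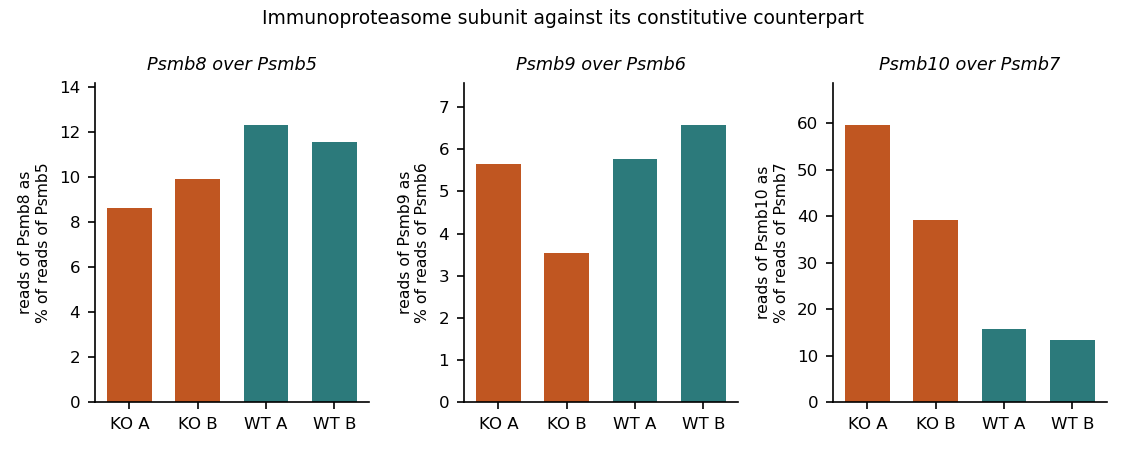
Reads of each immunoproteasome subunit as a percentage of the reads of its constitutive counterpart in the 4 input libraries, on a separate axis for each pair. The KO libraries stand above the WT libraries for Psmb10 over Psmb7 and below them for the other pairs.

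Of the PA28 genes, Psme2 fell and Psme1 was not called at the authors' scaling. Psme2, the beta subunit of PA28 (chromosome 14, 55587440 to 55591101), had counts of 358 and 309 in the KO libraries, against 595 and 597 in the WT libraries. Its log2 change was -0.84 ± 0.23 (SE, adjusted p = 0.001) in the authors' deposited table, and limma at equal total counts gave -0.02 (adjusted p = 0.91). Psme1, the alpha subunit (chromosome 14, 55578494 to 55581527), had counts of 595 and 513 in the KO libraries, against 574 and 629 in the WT libraries, which overlapped between genotypes. It was not called, at -0.12 ± 0.22 (SE, adjusted p = 0.714) in the authors' deposited table. At equal total counts limma called it higher at 0.70 (adjusted p = 0.00415), below the median of 0.87 over all genes. The gene overlaps Emc9, and whether reads were counted by strand is not known here. Psme2b had counts of 591 and 506 in the KO libraries, against 826 and 941 in the WT libraries, and -0.69 (adjusted p = 0.00469) in the authors' deposited table.

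Immune cells express much of the immunoproteasome, so their markers stand beside these values. Of 4 markers of all leukocytes (Ptprc, Coro1a, Laptm5, Cd53) 0 were called by DESeq2 or by limma at the authors' scaling (0 at an unadjusted p under 0.05). Limma called all 4 markers higher at equal total counts, where 58.7% of all genes rose and the median of all genes was 0.87. Summed normalized counts of these 4 markers were 675 and 608 in the KO libraries, against 528 and 510.4 in the WT libraries. Of 7 macrophage and Kupffer cell markers Cd68 rose and Clec4f, Cd163 and Vsig4 fell, with sums of 4087 and 3943 in the KO libraries, against 3439 and 2517 in the WT libraries. Cd68 alone had 2023 and 2665 in the KO libraries, against 168 and 207 in the WT libraries. Sums of 7 T and NK cell markers were 31.9 and 26.3 in the KO libraries, against 63.6 and 35.0 in the WT libraries. B cell markers (4) summed to 13.5 and 18.7 in the KO libraries, against 44.2 and 21.5 in the WT libraries, and dendritic cell markers (4) to 31.9 and 9.35 in the KO libraries, against 18.3 and 8.08 in the WT libraries. No marker of these lymphocyte and dendritic lists was called by DESeq2 (0 at an unadjusted p under 0.05) or by limma, and Xcr1 was at 0 in both KO libraries. Of 5 endothelial markers Clec4g fell, with sums of 2052 and 1541 in the KO libraries, against 2083 and 1623 in the WT libraries. Of 4 stellate cell markers Reln and Col1a1 rose, with sums of 5708 and 4530.0 in the KO libraries, against 4026 and 3108 in the WT libraries. At the authors' scaling 22.2% of all tested genes fell and 20.4% rose. The part of these cell types in the immunoproteasome values was not tested.

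In the regulatory particle 10 of 17 genes fell and 0 rose (0 also at an unadjusted p under 0.05 and in limma at the authors' scaling), with a median of -0.67. Over all tested genes 22.2% fell and 20.4% rose. At equal total counts limma called 0 lower (1 at an unadjusted p under 0.05) and 6 higher, namely Psmc2, Psmc6, Psmd7, Psmd8, Psmd11 and Psmd14, where 7.56% of all genes fell and 58.7% rose. Among the 6 ATPases of the base Psmc1, Psmc3, Psmc4 and Psmc5 fell. Psmc1, whose tail opens the gate of the core, had counts of 842 and 907 in the KO libraries, against 1877 and 1480.0 in the WT libraries, and -0.94 ± 0.21 (SE, adjusted p = 2.65e-05) in the authors' deposited table. Psmc2, its neighbour in the ring, moved least, with counts of 1085 and 1012 in the KO libraries, against 1225 and 1328 in the WT libraries. The authors' deposited table gave -0.28 ± 0.19 (SE, adjusted p = 0.242) for it and -0.40 (adjusted p = 0.12) for Psmc6. Groups of all 6 ATPases were without overlap at the authors' scaling, KO lower, as were those of 36.7% of all genes. At equal total counts Psmc2 and Psmc6 lay higher in KO, as did 72.4% of all genes, and the other 4 ATPases overlapped. Psmc3, Psmc4 and Psmc5 had log2 changes of -0.79, -0.74 and -0.78 in the authors' deposited table.

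The non-ATPases ran from -1.24 to 0.25 on the log2 scale at the authors' scaling, with 6 of 11 lower, where 22.2% of all tested genes were. Psmd13, a scaffold subunit of the lid, was the lowest, with counts of 775 and 797 in the KO libraries, against 2119.7 and 1582 in the WT libraries. Its log2 change in the authors' deposited table was -1.24 ± 0.21 (SE, adjusted p = 4.32e-08). Psmd6, another scaffold subunit of the lid, had counts of 523 and 569 in the KO libraries, against 1301 and 1065 in the WT libraries, and -1.12 ± 0.21 (SE, adjusted p = 9.60e-07) in the authors' deposited table. For both genes the KO libraries lay below the WT libraries also at equal total counts. They were the only 2 of the 11 to do so, and for 7 both KO libraries lay above both WT libraries. Of all genes 12.5% lay below and 72.4% above at that scaling. Psmd14, the deubiquitinase of the lid, stood at the other end, with counts of 470.2 and 471 in the KO libraries, against 383 and 407 in the WT libraries. Its change was not called, at 0.25 ± 0.23 (SE, adjusted p = 0.39) in the authors' deposited table, and limma at equal total counts called it higher at 1.07 (adjusted p = 3.93e-04). Psmd7, the inactive partner of Psmd14, had counts of 1209.7 and 1281 in the KO libraries, against 1173 and 1081 in the WT libraries, and 0.14 (adjusted p = 0.591) in the authors' deposited table. Psmd8, a lid subunit, had the highest mean count of the 49 genes, with 4973 and 4776 in the KO libraries, against 5094 and 4559.8 in the WT libraries. Its groups overlapped, and its share of all proteasome reads was 13.1% and 12.7% in the KO libraries, against 8.51% and 8.11% in the WT libraries. Log2 changes in the authors' deposited table for the scaffolds of the base, Psmd1 and Psmd2, were -0.67 and -0.77. In the authors' deposited table, those of the lid subunits Psmd3, Psmd11 and Psmd12 were -0.62, -0.47 and -0.83, and that of the ubiquitin receptor Psmd4 was -0.46. Psmd11 and Psmd4 missed the threshold (adjusted p = 0.051 and 0.0558 in the authors' deposited table).

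Of the other regulators 1 of 3 fell, where 22.2% of all genes fell and 20.4% rose. Psme4 (PA200), an activator known from nuclei and from germ cells, had counts of 944 and 868 in the KO libraries, against 1691 and 1833 in the WT libraries. Its log2 change was -0.96 ± 0.19 (SE, adjusted p = 3.83e-06) in the authors' deposited table, and equal total counts ended the call at -0.14 (adjusted p = 0.376) in limma. Psme3 (PA28 gamma), a nuclear activator, had counts of 1104 and 1056 in the KO libraries, against 1129 and 1081 in the WT libraries, and the regulator Psmf1 (PI31) had 852 and 895 in the KO libraries, against 832 and 792 in the WT libraries. The authors' deposited table gave -0.03 (adjusted p = 0.91) for Psme3 and 0.10 (adjusted p = 0.718) for Psmf1. Limma called both higher at equal total counts, Psme3 at 0.79 (adjusted p = 0.00115) and Psmf1 at 0.92 (adjusted p = 5.16e-04). Both values were near the median of 0.87 over all genes at that scaling, where 58.7% of all genes rose.

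Among the 7 assembly factors 1 fell and 0 rose (0 also at an unadjusted p under 0.05 and in limma at the authors' scaling), with a median of -0.39, where 22.2% of all genes fell and 20.4% rose. That was Psmd9 (p27), a chaperone of the ATPase base, which had the largest fall of all 49 genes. Its counts were 468 and 434 in the KO libraries, against 1697 and 1115 in the WT libraries, so that even the lower WT value was over 2 times each KO value. Its log2 change was -1.64 ± 0.24 (SE, adjusted p = 7.89e-11) in the authors' deposited table, and it was called lower at equal total counts too, at -0.79 (adjusted p = 0.011) in limma. Psmd5 (S5b), another chaperone of the base, had counts of 533 and 531 in the KO libraries, against 437 and 508 in the WT libraries, and 0.17 (adjusted p = 0.573) in the authors' deposited table. Psmd10 (gankyrin), the remaining one, had 102 and 89.2 in the KO libraries, against 124 and 139 in the WT libraries. Psmg4, a chaperone of the alpha ring, had the highest value of the class, with counts of 137 and 140.2 in the KO libraries, against 129 and 91.6 in the WT libraries, and 0.32 (adjusted p = 0.489) in the authors' deposited table. For Psmg1, Psmg2 and Psmg3, its partners in that step, log2 changes in the authors' deposited table were -0.39, -0.48 and -0.14, none of them called. Under equal total counts limma called Psmd9 lower and Psmd5, Psmg1, Psmg3 and Psmg4 higher, where 7.56% of all genes fell and 58.7% rose, so 4 of 7 higher was near the background. Psmc3ip matched the rule by name only, being a partner of recombinases in meiosis, and had 15 and 9 reads in the KO libraries, against 2 and 1 in the WT libraries. Psma3, Psma4, Psmd10, Psme2b, Psme4 and Psmc3ip overlap other genes of the table, so their counts are uncertain to that extent.

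Peaks of m6A enrichment were listed for most proteasome genes. The KO list held 65 peaks in 41 of the 49 genes and the WT list 41 peaks in 24, where 41.1% and 21.0% of all tested genes had a peak. Abundance bears on this, since among genes of like mean count 62.5% had a peak in the KO list and 30.8% in the WT list. Of the 47 proteasome genes of mean 100 or more, 87.2% had a peak in the KO list and 51.1% in the WT list. All 24 genes of the WT list were also in the KO list, 17 genes had peaks only in the KO list and 0 only in the WT list. There is 1 list per genotype, without values for single IP libraries, and the depth of the IP libraries is unknown, so no test of a difference between the lists was possible. Enrichment, the authors' value for each peak, is read here as the ratio of IP over input RNA.

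By class, 14 of 15 core genes had a peak in the KO list and 9 in the WT list. For the regulatory particle these were 17 and 10 of 17, for the immunoproteasome with PA28 4 and 2 of 6, and for the assembly factors 5 and 2 of 7. Among the other activators Psme3 had peaks in both lists and Psme4 and Psmf1 in neither. Of the genes with peaks in the KO list alone, Psma2, Psma3, Psma4, Psma5 and Psma6 belong to the alpha ring and Psmc1, Psmc2, Psmc4, Psmc5 and Psmc6 to the ATPases. The remaining 7 were Psmb8, Psmd11, Psmd14, Psme2, Psmg1, Psmg2 and Psmg3. Highest enrichments of these 17 genes ran from 4.20 for Psmg3 to 72.8 for Psmc6, with a median of 17.4. Psmb9 and Psmb10 had no peak in either list, nor did Psma8, Psmc3ip, Psmd10 and Psmg4. The 24 genes with peaks in both lists had a median log2 change of -0.71 in the input, and the 17 with peaks in the KO list alone -0.74. Of these groups 17 and 9 genes fell, where 46.5% and 20.4% of genes of like abundance with such peaks did.

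Where peaks of the 2 lists overlapped by at least 1 base, the enrichment was mostly lower in the KO list. Of 38 overlapping pairs in 24 genes, 26 (68.4%) had the lower value in the KO list, against 75.1% of 4282 pairs over all genes. A Psmd8 pair shared only 1 base and a Psmb5 pair 2 bases. With pairs of so little overlap left out, 25 of 36 (69.4%) were lower, against 75.8% over all genes. The 38 pairs held 30 KO peaks, so some KO values entered repeatedly. Proteasome peaks had a median of 149 bases in the KO list and 98 in the WT list, so paired values can cover unlike stretches. The median log2 ratio of enrichment was -0.42, against -0.98 over all genes, and whether proteasome pairs differ from the rest was not tested. The lowest ratios belonged to Psmd3, a lid subunit, and Psmd5, a chaperone of the base. The first peak of Psmd3 (chromosome 11, 98682554 to 98682903, mm10, at the annotated start) had an enrichment of 34.5 in the KO list, against 545 and 391 for the WT peaks inside it. Psmd5 had a peak 50 bases from its start (chromosome 2, 34870813 to 34870912) of 248 in the KO list and 2311 in the WT list. For Psmd1 the shared peak (chromosome 1, 86132725 to 86133710) had 17.5 in the KO list and 112 in the WT list. For Psmb7 (chromosome 2, 38642193 to 38643906) the values were 21.3 in the KO list and 80.4 in the WT list. Pairs also went the other way, as Psmd4 (chromosome 3, 95034963 to 95042564) with 40.5 in the KO list and 5.51 and 11.8 for the WT peaks inside it.

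The highest peaks of the remaining genes with peaks in both lists can be set side by side, gene by gene. They can lie at different places in the 2 lists, as for Psma7, Psmd2 and Psme1. The overlapping pair of Psmd2 at 20651701 to 20651849 on chromosome 16 had 264 in the KO list and 131 in the WT list. Its other pair had 165 in the KO list and 347 in the WT list. In the core, the highest enrichment was 15.5 in the KO list and 39.1 in the WT list for Psma1, and 10.51 and 13.2 in that order for Psma7. It was 15.03 in the KO list and 14.11 in the WT list for Psmb1, 17.0 and 9.91 for Psmb2, and 11.9 and 27.8 for Psmb3. Likewise it was 23.8 in the KO list and 32.5 in the WT list for Psmb4, 8.68 and 20.7 for Psmb5, and 22.4 and 29.4 for Psmb6. Only Psmb1 and Psmb2 of these had the higher value in the KO list. In the regulatory particle it was 81.8 in the KO list and 105 in the WT list for Psmc3, 264 and 347 for Psmd2, and 18.3 and 50.2 for Psmd6. It was 4.099 in the KO list and 8.21 in the WT list for Psmd7, 19.3 and 23.9 for Psmd8, 23.2 and 34.6 for Psmd12, and 29.4 and 17.4 for Psmd13. Psmd13 was the exception here, higher in the KO list. Outside these particles it was 35.8 in the KO list and 80.4 in the WT list for Psmd9, 9.05 and 28.6 for Psme1, 7.06 and 16.0 for Psme2b, and 72.7 and 81.3 for Psme3. In all, 20 of the 24 genes had the lower highest enrichment in the KO list, with a median log2 ratio of -0.79. These are values per gene and not per site, and the share over all genes was not computed.

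**Figure D5:**
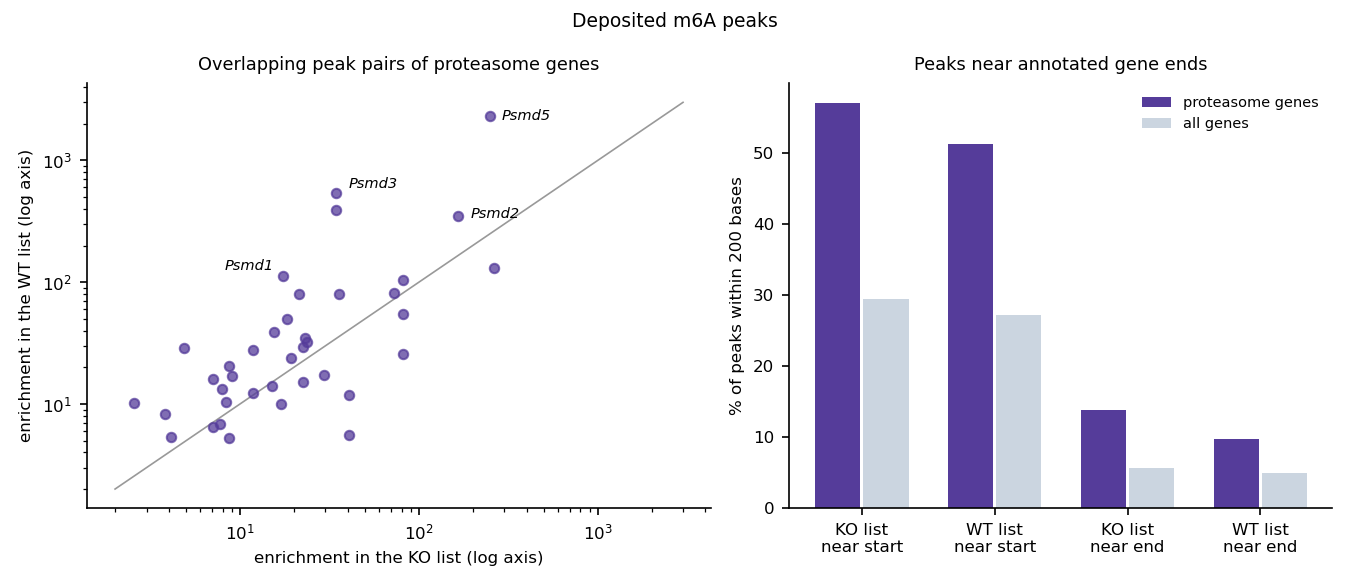
Left, enrichment of the 38 overlapping peak pairs of proteasome genes in the KO list (horizontal, log axis) and the WT list (vertical, log axis), with the line of equal values; 26 pairs lie above it. Right, percentage of peaks within 200 bases of an annotated gene start or end, for proteasome genes and for all genes.

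Many peaks of proteasome genes sat near the start of the gene. Of the 65 peaks in the KO list 37 (56.9%) lay within 200 bases of an annotated start, against 29.5% of peaks of all genes with an annotation. In the WT list these were 21 of 41 (51.2%), against 27.2%, a difference that was not tested. Peaks near the annotated end made up 13.8% in the KO list and 9.76% in the WT list, against 5.73% and 5.03% over all genes. Near-start peaks of proteasome genes had a median enrichment of 21.3 in the KO list and 34.6 in the WT list, and near-end peaks 6.34 in the KO list and 9.80 in the WT list. Over all genes the near-start medians were 19.5 in the KO list and 34.7 in the WT list. Proteasome peaks also spanned splice junctions often, with several blocks in 63.1% of the KO peaks and 31.7% of the WT peaks, against 29.2% and 20.5% over all genes. The part of exon number and gene length in these shares was not tested. Transcript starts bear on m6Am, which needs A as the first base. Of the 44 start windows of proteasome genes 11 (25.0%) began with A and 22 with G, against 34.4% and 35.6% of the windows of all genes. The motif GGAC, a frequent context of m6A, occurred in the first 50 bases of 18.2% of these windows, against 18.9% over all genes, and GGACT in 6.82%, against 5.76%.

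Start windows, from 250 bases before to 50 after an annotated start, were found for 41 of the 49 genes. On both strands, TGACNNNGC occurred in 6 of them (14.6%), against 3781 of the 27025 genes with such a window. CCAAT occurred in 14 (34.1%), against 41.1% of all genes. Of the 7 alpha ring genes with a window 5 held it, a share that was not tested. TTCNNNGAA occurred in 3 (7.32%), namely Psmb8, Psmd2 and Psmg1, against 9.55%. The core of interferon-stimulated response elements occurred in 5 (12.2%), namely Psmb3, Psmd4, Psmd9, Psme1 and Psmg4, against 3.99%. No matches of different motifs overlapped in these windows. The shares of TGACNNNGC, CCAAT and TTCNNNGAA were near or below those of all genes, and matches of this kind are letters in a window and not bound sites.

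Proteasome parts whose symbols fall outside the name rule included several that fell. Of 10 tested genes 4 fell and 0 rose (0 also at an unadjusted p under 0.05 and in limma at the authors' scaling), with a median of -0.42. Over all tested genes 22.2% fell and 20.4% rose. Pomp, the chaperone that closes the core, had counts of 602 and 714 in the KO libraries, against 1499.8 and 1419 in the WT libraries, and -1.15 ± 0.20 (SE, adjusted p = 1.08e-07) in the authors' deposited table. Txnl1, a thioredoxin of the regulatory particle, Fbxo7, a partner of Psmf1, and AI314180, the mouse name of a proteasome adaptor, had log2 changes in the authors' deposited table of -0.76, -0.70 and -0.56. Under equal total counts limma called 0 of the 10 lower (1 at an unadjusted p under 0.05) and 5 higher, where 7.56% of all genes fell and 58.7% rose.

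Of 10 genes of the NRF1 and NRF2 route, which controls proteasome genes, 4 fell and 3 rose, where 22.2% of all genes fell and 20.4% rose. At equal total counts 2 fell and 6 rose, a share of higher genes near the 58.7% of all genes. Nfe2l1 (NRF1), the factor that restores proteasome genes when the proteasome is short, had counts of 2946 and 2967 in the KO libraries, against 3714 and 4136 in the WT libraries, and missed the threshold at -0.41 (adjusted p = 0.0506) in the authors' deposited table. Ddi2, the protease that cleaves NRF1 to its active form, had counts of 1316 and 1429 in the KO libraries, against 3328 and 3386 in the WT libraries. Ngly1, which removes glycans from NRF1, had counts of 228 and 269 in the KO libraries, against 656 and 687 in the WT libraries. For both the KO values were below the WT values by over 2 times, with log2 changes in the authors' deposited table of -1.29 ± 0.18 (SE, adjusted p = 1.23e-11) and -1.44 ± 0.23 (SE, adjusted p = 6.25e-09). Both were also called lower at equal total counts, Ddi2 at -0.47 (adjusted p = 0.0128) and Ngly1 at -0.62 (adjusted p = 0.00665) in limma. Nfe2l2 (NRF2), the factor of the oxidative response, had counts of 1840.1 and 1829 in the KO libraries, against 443 and 711 in the WT libraries, without overlap. It rose by 1.67 ± 0.24 (SE) in the authors' deposited table. Of its small Maf partners, Mafg fell and Maff and Mafk rose, with log2 changes in the authors' deposited table of -0.95, 1.84 and 0.80. At equal total counts limma called Maff and Mafk higher and did not call Mafg.

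Of 17 p97 and shuttle factors, which deliver substrates, 10 fell and 2 rose at the authors' scaling, where 22.2% of all genes fell and 20.4% rose. At equal total counts 2 fell and 7 rose, where 7.56% of all genes fell and 58.7% rose. Ddi2, 1 of the 2 that fell, is counted in the NRF1 and NRF2 route as well. Vcp (p97), the ATPase that extracts proteins from the endoplasmic reticulum, had counts of 2461 and 2586 in the KO libraries, against 4401 and 5412 in the WT libraries, and -0.96 (adjusted p = 2.26e-06) in the authors' deposited table. Zfand2a, an arsenite- and stress-inducible partner of the proteasome, rose, with counts of 1061 and 1038 in the KO libraries, against 162 and 276 in the WT libraries, while its paralogue Zfand2b had 336 and 347 in the KO libraries, against 947 and 851 in the WT libraries. Log2 changes were 2.27 and -1.40 in the authors' deposited table, and both calls held at equal total counts. Of 6 genes of ubiquitin and its E1 enzymes 4 fell, with Ubb, a polyubiquitin gene, at -1.08 in the authors' deposited table. Uba6, an alternative E1, rose by 1.22 in the authors' deposited table. Limma at equal total counts called 0 of these 6 lower (0 at an unadjusted p under 0.05) and 2 higher, where 7.56% of all genes fell and 58.7% rose.

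Genes that use or induce the immunoproteasome were mixed. Of 10 genes of MHC class I antigen processing 4 fell and 1 rose, where 22.2% of all genes fell and 20.4% rose. B2m and H2-K1, the light and a heavy chain of class I, fell by 1.16 and 0.90 in the authors' deposited table. Nlrc5, the transactivator of class I genes, rose by 0.66 in the authors' deposited table, with counts of 766 and 839.5 in the KO libraries, against 547 and 470.0 in the WT libraries. The counts of B2m, H2-K1, H2-D1, Calr and Pdia3 were not recovered, as their means lie above the 10000 up to which counts were searched, and at equal total counts the 5 others rose, where 58.7% of all genes did. Of 16 interferon response genes 6 fell and 0 rose (0 also at an unadjusted p under 0.05 and in limma at the authors' scaling). Among those with the smallest p were Iigp1, Irf9 and Igtp, with log2 changes in the authors' deposited table of -1.52, -1.39 and -1.33. Limma at equal total counts called 3 of the 16 lower (Iigp1, Irf9 and Igtp) and 1 higher, where 7.56% of all genes fell and 58.7% rose. Counts of Irf9, the DNA-binding subunit of ISGF3, were 272 and 211 in the KO libraries, against 544 and 720.5 in the WT libraries.

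Complexes with subunits related to those of the lid were measured as well. Of 9 genes of the COP9 signalosome 7 fell and 0 rose (0 also at an unadjusted p under 0.05 and in limma at the authors' scaling), with a median of -0.59. Cops6 had counts of 873 and 998 in the KO libraries, against 2149.9 and 2345 in the WT libraries, and -1.26 (adjusted p = 5.15e-10) in the authors' deposited table, the largest change of that complex. Of 8 related subunits of eIF3, 5 fell and Eif3a rose, with a median of -0.61. At the authors' scaling 22.2% of all tested genes fell and 20.4% rose. At equal total counts limma called 1 COP9 gene lower and 2 higher, and 0 eIF3 genes lower (0 at an unadjusted p under 0.05) and 3 higher, where 7.56% of all genes fell and 58.7% rose. Beside these, the regulatory particle had a median of -0.67, and whether the complexes differ was not tested.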

How the data were processed

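Input RNA and m6A-IP RNA of KO and WT livers were sequenced in 8 libraries. Per the submitters' processing notes, the authors used HISAT2 2.1.0 and DESeq2 1.18.1 with mm10. Which read counter, annotation and peak caller served is not stated. The authors deposited 1 comparison of the input libraries, per the file headers with a mean normalized count per gene (a signal), a log2 fold change with its SE (log2), a Wald statistic (score), and p-values with adjusted p-values. They also deposited 1 peak list per genotype, with coordinates, a score and an enrichment score per peak, per the file headers. The score is read here as a p-value and the enrichment score as a ratio of IP over input. The direction of the fold change is read from the peak lists.

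The deposited table holds no counts per library. Whole reads of each input library were recovered as the whole numbers that give the deposited means to their printed digits, for 15917 of 16133 genes (98.7%), with means up to 10000 searched. Size factors were 1.25 and 1.18 in KO and 0.927 and 0.743 in WT. Tested on simulated data, the search found 616 of 618 genes and all 616 were right. For means above 100 the deposited fold change guided the search. The simulated fold changes came from the same formulas that the search uses, with the same dispersion for every gene. The test therefore does not measure errors that arise with DESeq2's own fold changes. For the 49 proteasome genes, log2 changes refitted from the recovered reads differed from the deposited ones by at most 7.84e-06. No count model was run on the recovered reads, and the alternative fits used limma 3.58.1 in R 4.3.3 with trend on log2(normalized count + 1), for the 14041 recovered genes with an adjusted p in the authors' table. In simulated data for that comparison of 14041 genes, limma found 74.0% of changes of log2 1, 100% of log2 2 and called 0.0433% of unchanged genes. The simulation had the same dispersion for every gene and few changed genes. In the authors' test 42.5% of tested genes were called, so the simulated rates may not hold for these data. P-values were adjusted by Benjamini and Hochberg over all genes fitted, with calls at 0.05. Peaks were overlapped by exon blocks on the same strand with bedtools 2.31.1, by at least 1 base. Start windows and coordinates came from RefSeq (GRCm38.p6).

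Members and gene lists were chosen with earlier results of these data known. Genes named in full were the catalytic and immunoproteasome subunits, the highest and lowest of each class, members with peaks, members called against their class, and up to 4 called genes of each list by smallest p, of which some are not reported here. Marker genes and a few further genes were named after their values were seen. Interval estimates cover counting error only.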

Additional observations from a re-analysis of the deposited data

How the results depend on the processing

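Scaling the libraries to equal total counts changed most calls, and this follows from its construction, since it moves all genes up by 0.82 on the log2 scale. In limma at equal total counts, 2 proteasome genes were lower and 15 higher, with 0 core genes lower, 0 regulatory particle genes lower and 6 higher, 1 immunoproteasome gene lower and 2 higher, and 4 assembly factors higher. The class medians there were 0.13 over all members, -0.0198 for the alpha ring, -0.0015 for the beta ring, 0.0595 for the ATPases, 0.20 for the non-ATPases, 0.056 for the immunoproteasome, 0.79 for the other activators and 0.44 for the assembly factors. Lower and higher calls of the lists became 0 and 5 for proteasome parts outside the name rule, 2 and 6 for the NRF1 and NRF2 route, 2 and 7 for p97 and shuttle factors, 0 and 2 for ubiquitin and E1, 0 and 5 for MHC class I, 3 and 1 for the interferon response, 1 and 2 for COP9 and 0 and 3 for eIF3. The sign of 24 genes turned, at 0.0074 for Psma4, 0.24 for Psma5, 0.13 for Psma7, 0.0094 for Psma8, 0.089 for Psmb2, 0.33 for Psmb3, 0.15 for Psmb5, 0.54 for Psmc2, 0.0298 for Psmc3, 0.0816 for Psmc4, 0.0375 for Psmc5, 0.43 for Psmc6, 0.16 for Psmd1, 0.36 for Psmd10, 0.35 for Psmd11, 0.0541 for Psmd2, 0.20 for Psmd3, 0.37 for Psmd4, 0.70 for Psme1, 0.13 for Psme2b, 0.79 for Psme3, 0.44 for Psmg1, 0.35 for Psmg2 and 0.68 for Psmg3. Higher calls of limma were 2 at the authors' size factors, 2 with no filter on mean count and 2 with a pseudocount of 5, and limma had 0 of the MHC class I genes lower, as only 5 of 10 had recovered counts. Leaving out 1 library gave 0 to 34 genes lower and 0 to 2 higher, 0 to 14 core genes, 0 to 13 regulatory particle genes and 0 to 3 assembly factors lower, and 0 to 4 immunoproteasome genes lower and 0 to 1 higher, the zeros without KO A or KO B. Medians without 1 library ran from -0.93 to -0.75 for the beta ring (-0.76 without KO A and -0.89 without WT B), from -0.81 to -0.68 for the ATPases and from -0.37 to -0.25 for the assembly factors (-0.35 without KO A). Psmd8 stood at -0.013 without KO A and -0.064 without WT B, and the cause was not tested. The summed share had a log2 difference of -0.27 without the 100 genes of highest mean and 0.20 against the estimated total, an alternative chosen after seeing the data, as was the count without Psme2b. The pair ratios kept their sign in every leave-one-out and pseudocount setting, but groups without overlap cannot change sign when 1 library is left out. The peak counts kept within 1.5 times under a stricter p, an enrichment minimum or a larger overlap. A p under 0.001 and an enrichment of at least 2 removed no proteasome peak, so these 2 settings were no check of the counts. No paired analysis was possible because the recovered libraries carry no replicate numbers. Depth limits genes of few reads, such as Psma8 and Psmc3ip.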
